A study of Mus musculus with 9 samples.

Results

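The response of mouse prostate organoids to UK5099 was followed across all genes measured by RNA sequencing (RNA-seq). UK5099 inhibits the mitochondrial pyruvate carrier (MPC), and the comparison asked what changes in the transcriptome when the carrier is blocked with the drug. It takes 6 of the 9 libraries of the series, chosen by their labels. These are 3 UK5099 libraries, from organoids given 10 µM UK5099 for 1 week, and 3 Vehicle libraries, from organoids given vehicle for the same time. All 6 came from basal-derived prostate organoids of the Mpc1 floxed genotype and were taken to carry a lentivirus coding for red fluorescent protein (RFP). Only the column names of the Vehicle libraries hold RFP, while those of the UK5099 libraries name the drug. Per the methods, floxed basal cells received either this virus or one that also coded for Cre. The remaining 3 libraries, Mpc1-KO, came from organoids of the same floxed genotype in which Mpc1 had been knocked out with a Cre virus, and they enter the shared estimate of spread and 1 direct contrast with the drug. Organoids are mixtures of cell states grown from sorted basal cells, and the labels did not say whether the numbered libraries were separate cultures or separate animals. The p-values therefore measure the spread between these libraries, which may be technical.

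The MPC is a heterodimer of Mpc1 and Mpc2 in the inner mitochondrial membrane, and it carries pyruvate made by glycolysis into the matrix, where it can be oxidized or used to make citrate. Basal prostate cells carry Krt5, Krt14 and Trp63, whereas the luminal cells that line the gland carry Krt8 and Krt18. Stratified squamous epithelia instead end in a cornified layer, which is built from cross-linked envelope proteins, keratins, desmosomes and secreted lipid.

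Depth was 16.5 to 26.3 M reads in the UK5099 libraries and 22.1 to 27.4 M reads in the Vehicle libraries, and 12281 to 12467 genes reached 1 CPM (reads of a gene, scaled to the library's total) in a library. Basal markers were abundant in all 6 libraries, with Krt5 at 6833, 6689.6 and 5939.7 CPM in the UK5099 libraries and at 1701, 1557 and 1628 CPM in the Vehicle libraries. Markers of other cells varied. Urothelial markers, Cd68 and Dcn were well above 0 and are given beside the genes they touch, and Foxj1, of multiciliated cells, had 5.05, 0.876 and 1.94 CPM with UK5099 against 4.85, 4.09 and 4.18 CPM in Vehicle. The leukocyte gene Ptprc stayed at or below 0.19 CPM, and the endothelial gene Cdh5, the macrophage gene Adgre1 and the smooth muscle gene Des had no reads in any of the 6. Another endothelial gene, Pecam1, was detected, at 0.521, 0.533 and 0.91 CPM with UK5099 against 0.544, 0.584 and 1.0 CPM in Vehicle. The melanocyte gene Pmel had 2.77, 2.13 and 3.76 CPM against 1.81, 2.3 and 1.92 CPM. Luminal markers were also present. Krt8 had 625, 499 and 453 CPM in UK5099 libraries against 884, 713 and 704 CPM in Vehicle, and Krt18 had 959, 830 and 915 CPM against 1361, 1290 and 1273 CPM. Prom1 had 54.2, 65.2 and 61.4 CPM against 192, 218 and 200 CPM, and Cd24a had 736, 650 and 741 CPM against 632, 583 and 580.5 CPM. Pbsn, a secretory product of mature luminal prostate cells, was at most 0.219 CPM. Mpc1 transcript had 2.04, 2.47 and 2.30 CPM in UK5099 libraries against 2.36, 2.41 and 2.38 CPM in Vehicle libraries and did not pass the test (log2 fold change of -0.06 ± 0.14 (SE), limma adjusted p = 0.77). It stood at 0.522, 0.533 and 0.598 CPM in Mpc1-KO, and Mpc2 did not pass either (0.33, adjusted p = 0.097). UK5099 library 1 stood apart from libraries 2 and 3, as described after the gene groups, and values are given for each library for that reason.

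UK5099 changed a large part of the transcriptome, mostly by small amounts. Of 12396 genes whose 9-library mean reached 1 CPM, 4721 passed at a limma adjusted p below 0.05, or 38.1%. Of these, 2462 were higher with UK5099 (19.9% of genes tested) and 2259 were lower (18.2%). Rescaling turned this balance, with 2355 higher and 2540 lower by median of ratios and 2343 and 2510 by upper quartile. The main fit did not pair libraries by number, and with the number as a block 4922 genes passed. It took the spread of a gene from all 9 libraries, of which Mpc1-KO varied least. The median SD was 0.061 in Mpc1-KO, 0.181 in UK5099 and 0.088 in Vehicle, so the shared spread can make these p-values too small. With only the 6 UK5099 and Vehicle libraries 3474 genes passed, 1765 higher and 1709 lower. Fold changes are differences of log2(CPM + 0.5) and understate the change of low genes. The median log2 fold change was 0.52 among the genes called higher and -0.56 among those called lower, and 55.0% of the called genes changed by less than 1.5-fold. A change past 2-fold was reached by 941 called genes (7.59% of genes tested), 437 higher and 504 lower.

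The most extreme changes were as follows. Past 8-fold, 62 called genes were higher and 17 were lower, and past 16-fold the counts were 28 and 7. In all, the UK5099 and Vehicle libraries did not overlap in 5660 genes (45.7%). Calls also varied with abundance. Among genes in the lowest quartile of means, 32.7% were called and 14.2% were called past 2-fold, while in the highest quartile the shares were 46.5% and 4.07%. Protein-coding genes were called in 39.2% of 11606 cases and long non-coding genes in 23.9% of 451. The plot of fold change by abundance shows both wings of the response.

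**Figure D1:**
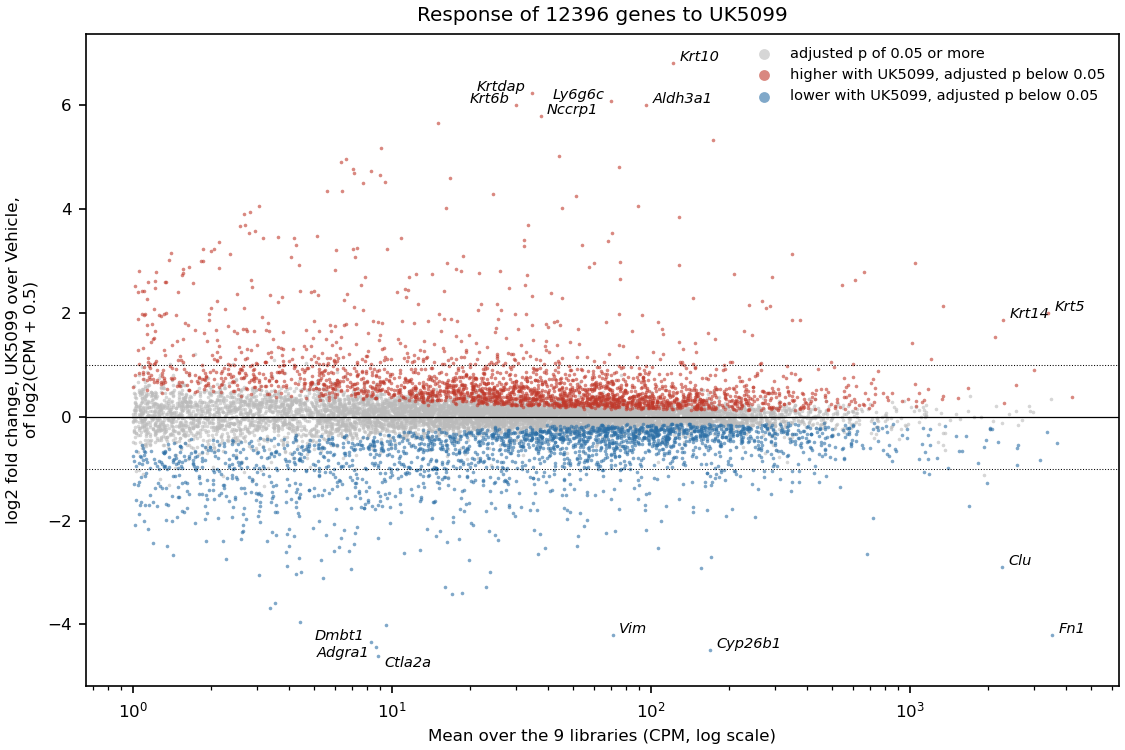
Each point is 1 of 12396 genes, with its mean CPM over the 9 libraries on a log axis and its log2 fold change (UK5099 over Vehicle, of log2(CPM + 0.5)) on the vertical axis, coloured by the limma call at an adjusted p below 0.05. Dotted lines mark 2-fold, and the rises reach 6.8 (Krt10) while the deepest fall is -4.61 (Ctla2a).

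In terms of transcript mass, genes with a higher mean in UK5099 gained 120144 CPM in sum, or 12% of a library, and genes with a lower mean lost 120279 CPM. The 12 called genes with the largest gains held 19.5% of the gain. Keratins made up much of it, with Krt5, Krt14, Krt15, Krt6a and Krt4 gaining 4859, 3290.4, 2408, 2164 and 1293 CPM. Beside them stood 2 glutathione transferases, which conjugate reactive compounds. Gsto1 had 1868, 2954 and 3123 CPM in the UK5099 libraries against 591.9, 569.5 and 616 CPM in the Vehicle libraries, and Gsta4 had 1208, 1419.6 and 1328 CPM against 216, 209.9 and 212 CPM. Gsta4 changed with little spread (log2 fold change of 2.63 ± 0.07, adjusted p = 1.6e-08). The others were the desmosomal plaque gene Dsp, the envelope precursor Sprr1a, the surface antigen gene Psca, Anxa2, and the elongation factor gene Eef2.

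The 12 largest losses held 18.8% of the loss and had a different character. Fn1, the matrix protein fibronectin, fell by 6707 CPM, with 587, 254 and 386 CPM in UK5099 organoids against 6618, 7734 and 6998 CPM in Vehicle. Clu, a secreted chaperone, stood at 913, 369.8 and 527 CPM against 4248, 4202 and 4173 CPM. Matrix and adhesion genes filled most of the rest, among them Tnc, Lama3, Itgb1, Itga2 and the matricellular gene Ccn2, beside the epithelial adhesion gene Epcam and the cytoskeletal gene Myh9. Bsg and App were also among them.

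The 12 largest fold increases included keratins and precursors of the cornified envelope. Krt10, a suprabasal keratin, had 167, 562 and 352 CPM in UK5099 libraries 1 to 3 against 2.85, 1.72 and 2.72 CPM in Vehicle libraries 1 to 3 (log2 fold change of 6.8 ± 0.37, adjusted p = 1.3e-06). Ly6g6c, which codes for a membrane-anchored Ly6 protein, had 82.4, 294 and 234 CPM against 2.63, 1.31 and 2.80 CPM (6.07 ± 0.46). Rptn, the envelope precursor repetin, had 12.2, 64.8 and 56.0 CPM against 0.272, 0.219 and 0.167 CPM (5.65 ± 0.52). In these 3 genes library 1 was the lowest of the UK5099 libraries. It lay above every Vehicle library, as the rule that chose the genes required. Krtdap, Krt6b, Nccrp1, Krt13, Cnfn and the desmosomal cadherin gene Dsg1b followed with fold changes of 4.91 to 6.24 on the log2 scale.

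An enzyme, a channel and a lipid transporter were also among the 12. Aldh3a1, an aldehyde dehydrogenase, had 359, 259 and 212 CPM in UK5099 organoids against 5.30, 3.07 and 3.09 CPM in Vehicle (6.01 ± 0.22, adjusted p = 2.5e-07), and here library 1 was the highest. Aqp3, a channel for water and glycerol, had 79.2, 163 and 124 CPM against 3.13, 2.96 and 3.35 CPM (5.01 ± 0.24). Abca12, which loads lipid into the lamellar granules of keratinocytes, had 11.4, 26.2 and 20.9 CPM against 0.181, 0.073 and 0.0836 CPM (4.95 ± 0.27). The absence of overlap between the groups was part of the rule that chose these genes.

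In 3 genes no read was found in Vehicle. The lipoxygenase gene Alox12b, needed for the lipid envelope of the skin, had 11, 146 and 70 reads in UK5099 libraries 1 to 3, and Endou, an endoribonuclease of stratified epithelium, had 21, 307 and 97 reads. The xenobiotic P450 gene Cyp1a1 had 76, 105 and 36 reads. The floor was taken as 3 reads over the 3 Vehicle libraries (0.0409 CPM). Pooled over the UK5099 libraries, Alox12b was at least 82.0-fold, Endou at least 153.6-fold and Cyp1a1 at least 78.4-fold above it. These folds do not hold for each library, since UK5099 library 1 had only 0.441 CPM of Alox12b and 0.842 CPM of Endou. With no reads in Vehicle, these genes could pass the filter on the mean only through the other libraries. No gene tested was without reads in all 3 UK5099 libraries.

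**Figure D2:**
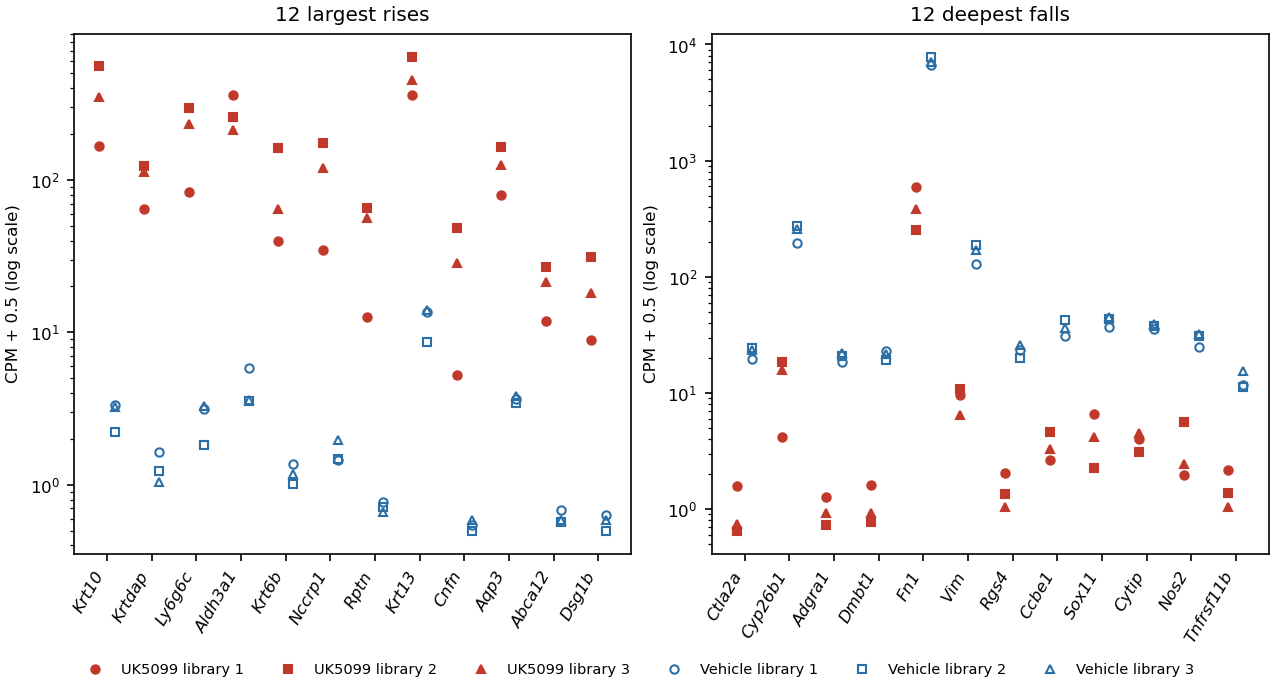
CPM + 0.5 on a log axis for the 12 genes with the largest rises (left) and the 12 with the deepest falls (right) that passed, had a mean of at least 5 CPM and did not overlap between groups. Filled red symbols are UK5099 libraries and open blue symbols Vehicle libraries, with 1 symbol shape per library number, and UK5099 library 1 (filled circle) lies below libraries 2 and 3 in 11 of the 12 rises.

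The deepest falls were of mixed function. Ctla2a, an inhibitor of cysteine proteases, had 1.08, 0.152 and 0.243 CPM with UK5099 against 19.2, 23.9 and 22.9 CPM in Vehicle (-4.61 ± 0.32, adjusted p = 4.8e-06). Cyp26b1, which degrades retinoic acid, had 3.69, 17.8 and 15.1 CPM against 195, 271 and 255 CPM (-4.49 ± 0.44), and without UK5099 library 1 its log2 fold change was -3.82. The intermediate filament gene Vim had 9.18, 10.3 and 5.94 CPM against 129, 188 and 169.9 CPM (-4.20 ± 0.21). Adgra1, an adhesion G-protein-coupled receptor, and Dmbt1, a secreted mucosal defence protein, fell by 4.43 and 4.34 on the log2 scale.

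Further falls touched signalling. Rgs4, a brake on G-protein signalling, fell by 4.02, and the transcription factor gene Sox11 changed by -3.40. Nos2, the inducible nitric oxide synthase, had 1.48, 5.14 and 1.94 CPM in UK5099 organoids against 24.3, 30.4 and 31.6 CPM in Vehicle. Tnfrsf11b, the decoy receptor osteoprotegerin, had 1.68, 0.876 and 0.546 CPM against 11.1, 10.7 and 14.8 CPM. Cytip fell by 3.28 and Ccbe1 by 3.41. That all 3 UK5099 libraries lay below all 3 Vehicle libraries was part of the rule that chose these 12 genes.

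Gene groups are described next by how many members passed in each direction, to be read against 19.9% of all genes higher and 18.2% lower. In bulk RNA, a change in the share of cells of a type and a change in RNA per cell cannot be told apart. Of 31 tested precursors of the cornified envelope (46 listed), 30 rose and none fell. Their median log2 fold change was 2.81 against 0.04 over all genes tested. The filter used the mean over all libraries, so members near 0 in Vehicle could enter only through higher values in other libraries. Listed members with a low mean were not tested. The counts and medians of this group, here and below, can therefore be raised by the filter. Csta1, a protease inhibitor of the envelope, had 73.7, 102 and 85.7 CPM in UK5099 libraries against 6.25, 5.91 and 6.52 CPM in Vehicle (3.69 ± 0.12). Involucrin (Ivl) had 234, 229 and 255 CPM against 98.5, 79.4 and 92.2 CPM. The group had medians of 1.74, 3.27 and 3.17 in UK5099 libraries 1 to 3, each relative to the Vehicle mean. Sprr genes are close copies of one another, and the treatment of reads shared between them was not stated.

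The lipid and junction parts of the squamous barrier were also called. Of 28 genes of the epidermal lipid barrier, 17 rose and 6 fell (median 0.56). Elovl4, which elongates very long fatty acids, had 40.4, 84.5 and 76.4 CPM with UK5099 against 3.17, 2.66 and 2.63 CPM in Vehicle, and Cyp4f39, a fatty acid hydroxylase, rose by 3.31. Of 13 desmosome genes, 10 rose and 2 fell (median 1.02), with Dsg3 at 607, 764 and 694 CPM against 179, 186 and 204 CPM and Dsc3 rising by 1.60. Tight junction genes went the other way, with 6 lower and 1 higher of 17. Cldn3, a claudin, had 114, 95.6 and 111 CPM in UK5099 organoids against 225, 209.8 and 218 CPM in Vehicle. Among proteases and inhibitors of the epidermis, 12 of 21 rose and 4 fell, and all 7 tested membrane serine protease genes of the Tmprss family rose (median 1.03).

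Urothelial markers also moved. Of 4 tested, 3 rose and 1 fell. Krt20 had 71.8, 258 and 195 CPM in UK5099 libraries against 14.5, 12.3 and 16.5 CPM in Vehicle, while the uroplakin gene Upk3a had 1.32, 0.19 and 0.364 CPM against 5.57, 2.7 and 2.8 CPM. The summed level of the 6 listed markers was 155 to 318 CPM with UK5099 and 44.2 to 49.4 CPM in Vehicle, and its part in the other epithelial changes was not tested.

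Genes that oxidize and conjugate foreign compounds formed a second broad rise. Of 46 tested, 25 rose and 3 fell, with a median of 0.45. Cyp1b1, a P450 induced through the aryl hydrocarbon receptor, had 196, 235 and 192 CPM in UK5099 organoids against 6.66, 7.19 and 6.86 CPM in Vehicle (4.81 ± 0.09 on the log2 scale, adjusted p = 1.5e-09). The quinone reductase gene Nqo1 had 141, 179 and 163 CPM against 17, 10.8 and 12.9 CPM (3.53 ± 0.14). In both genes the 3 UK5099 libraries lay close together. Glucuronosyltransferase genes (Ugt) rose in 5 of 6 cases with a median of 1.86. Their shared exons leave the individual levels uncertain.

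The aryl hydrocarbon receptor binds DNA at a site with the core GCGTG. The promoters of Cyp1a1 and Cyp1b1, textbook target genes, are shown to place that core. The windows run from 250 bases before to 50 after the annotated start (RefSeq, GRCm38.p6), read in the direction of the gene, with capitals marking GCGTG or its reverse complement. Cyp1a1 is on the plus strand at chr9:57697363-57697662 and Cyp1b1 on the minus strand at chr17:79715012-79715311.
Cyp1a1: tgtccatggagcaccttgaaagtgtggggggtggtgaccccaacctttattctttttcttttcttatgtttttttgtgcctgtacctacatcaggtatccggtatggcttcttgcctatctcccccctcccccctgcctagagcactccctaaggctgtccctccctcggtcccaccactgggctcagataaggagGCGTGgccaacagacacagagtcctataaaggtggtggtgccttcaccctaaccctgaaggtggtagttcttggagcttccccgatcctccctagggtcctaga
Cyp1b1: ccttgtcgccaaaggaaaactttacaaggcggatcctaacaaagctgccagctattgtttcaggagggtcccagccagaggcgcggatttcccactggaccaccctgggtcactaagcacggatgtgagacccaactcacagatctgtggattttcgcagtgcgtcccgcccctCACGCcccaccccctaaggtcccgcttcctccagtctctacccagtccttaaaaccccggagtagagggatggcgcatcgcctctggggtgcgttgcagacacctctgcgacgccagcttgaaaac
Each of these windows held the core at 1 place, while the windows of Nqo1, Ugt1a6a and Ugt1a7c held none. The core is short and common, being found on either strand in 52.6% of the 9593 tested genes with a promoter in the table, in 13 of 39 promoters of the xenobiotic group (33.3%) and in 37.2% of 317 promoters of genes called higher past 2-fold. A match is a description of the sequence and does not show binding.

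Genes of glutathione and NADPH supply rose in 16 of 27 cases and fell in 5 (median 0.37). G6pdx, the entry enzyme of the pentose phosphate pathway, had 283, 213 and 204 CPM with UK5099 against 112, 86.8 and 93.8 CPM in Vehicle, and the next oxidative enzyme of that pathway, Pgd, had 415, 404 and 339 CPM against 221, 196 and 206 CPM. The groups did not overlap in either gene, as was so in 45.7% of all genes tested. Gclc, the catalytic subunit of glutamate-cysteine ligase and named after its values were seen, rose by 1.15.

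All 25 tested genes of cholesterol synthesis and its control were higher with UK5099 (median 0.73). The libraries of the groups did not overlap in any of them, beside 45.7% of all genes without overlap. Hsd17b7 had 79.7, 102 and 61.1 CPM in UK5099 organoids against 27.9, 20.6 and 22.5 CPM in Vehicle (1.73 ± 0.18), and Sqle, the squalene epoxidase, had 256, 361 and 294 CPM against 157, 142 and 138 CPM. Unlike the cornified genes, none of the 25 lay over 0.5 log2 units outside libraries 2 and 3 in UK5099 library 1. Over all genes the shares were 5.48% below and 7.45% above. The promoter of Hmgcs1, which codes for the enzyme that makes HMG-CoA, is shown because it was the only one of 17 in the table to hold TCACNCCAC, a form of the sterol regulatory element, on either strand. It lies on the plus strand at chr13:119690101-119690400 of GRCm38.p6, and capitals mark the element.
Hmgcs1: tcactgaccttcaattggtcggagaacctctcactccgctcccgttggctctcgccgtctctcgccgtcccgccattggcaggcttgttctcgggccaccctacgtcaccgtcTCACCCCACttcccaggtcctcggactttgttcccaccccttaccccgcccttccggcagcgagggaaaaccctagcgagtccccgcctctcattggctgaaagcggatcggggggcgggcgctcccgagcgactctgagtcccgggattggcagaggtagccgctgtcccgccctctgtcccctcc
The same letters occurred in 1.06% of the promoters of tested genes. Hmgcs1, named after its values were seen, had 772, 849.7 and 655 CPM against 459, 347 and 368 CPM.

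Carbon metabolism changed in parts. Genes of pyruvate entry and the tricarboxylic acid (TCA) cycle rose in 14 of 31 cases and fell in 1 (median 0.28). Pcx, the pyruvate carboxylase, had 49.3, 90.1 and 95.2 CPM with UK5099 against 24.5, 29.0 and 29.4 CPM in Vehicle (1.43 ± 0.21), whereas Idh2 fell by 0.44. Nuclear genes of the respiratory chain moved by small amounts in 1 direction, with 17 higher and 0 lower of 47 complex I genes (median 0.23), 10 and 0 of 19 cytochrome oxidase genes (0.20) and 9 and 0 of 16 ATP synthase genes (0.29). None of the 9 mitochondrially encoded genes tested passed. Fatty acid and glycerolipid synthesis had 7 higher and 3 lower of 20, with Acly, the ATP citrate lyase, at 545, 577 and 451 CPM against 360.1, 289.8 and 303 CPM, while Acacb fell by 1.11.

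Fatty acid handling contained larger single changes than its median of 0.16 shows. Fabp5, the epidermal fatty acid binding protein, had 61.3, 190 and 115 CPM with UK5099 against 7.43, 5.80 and 5.85 CPM in Vehicle (4.02 ± 0.32), while Angptl4, an inhibitor of lipoprotein lipase, had 2.08, 2.28 and 2.12 CPM against 11.8, 15.7 and 14.8 CPM (-2.44 ± 0.18). Gpt2, the mitochondrial alanine transaminase, had 78.5, 78.2 and 79.2 CPM against 41.5, 40.1 and 43.1 CPM, nearly equal within each group. Of 30 genes of amino acid use and transport, 8 rose and 3 fell (36.7% called). Psat1, of serine synthesis, rose by 1.20, and the carriers Slc38a1 and Slc7a5 fell by 2.25 and 1.25. In the glycolysis group only Hk2 passed of 21 genes (-0.62, adjusted p = 0.023), and its call was lost without Vehicle library 2 (-0.58), without Vehicle library 3 (-0.60), and in a fit of only the 6 UK5099 and Vehicle libraries. Genes with many pseudogene copies, such as Gapdh at 4.61 to 6.54 CPM in the 6 libraries, are uncertain in level.

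Cell cycle genes were higher with UK5099. All 30 mitosis genes passed (median 0.67), and in DNA replication 18 of 33 rose and none fell (median 0.42). Mki67, a marker of cycling cells, had 199, 256 and 185 CPM in UK5099 organoids against 139, 103 and 102 CPM in Vehicle (0.89 ± 0.14, adjusted p = 0.00067). Mcm5, a subunit of the replicative helicase, had 26.7, 35.2 and 20.1 CPM against 16.2, 10.2 and 9.74 CPM. Among brakes of the cycle and p53 targets, 5 rose and 7 fell of 24, with the checkpoint protein gene Sfn rising by 0.89 and the p53 inhibitor gene Mdm2 falling by 0.58.

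Protein synthesis and quality control moved less. Cytosolic ribosomal protein genes rose in 29 of 46 cases and none fell, with a median of only 0.32. Rplp0 had 720.1, 704 and 819 CPM with UK5099 against 493, 506 and 493 CPM in Vehicle. Proteasome genes (5 higher and 1 lower of 31) and aminoacyl-tRNA synthetase genes (2 and 1 of 20) were called in 19.4% and 15.0% of cases, beside 38.1% of all genes. Genes of endoplasmic reticulum stress fell in 14 of 26 cases and none rose (median -0.21), with the stress transcription factor gene Atf3 at 88.6, 210.5 and 190 CPM against 447, 425 and 413 CPM. Lysosome and autophagy genes fell in 16 of 31 cases and rose in 4, such as the protease gene Ctsz at 27.2, 32.2 and 28.3 CPM against 60.7, 66.5 and 63.0 CPM.

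Interferon and antigen presentation genes were lower. Of 33 interferon-stimulated genes, 20 fell and none rose (median -0.70), and of 14 genes of the immunoproteasome and antigen presentation 13 fell (median -0.60). B2m, the light chain of MHC class I, had 144, 146 and 183 CPM with UK5099 against 303, 372 and 381 CPM in Vehicle (-1.16 ± 0.11). In the interferon group library 2 was the lowest, with medians of -0.64, -1.17 and -0.35 in UK5099 libraries 1 to 3. Summed markers of endothelial and immune cells were also lower, at 12.4 to 30.8 CPM with UK5099 and 36.4 to 50.6 CPM in Vehicle, and nearly all of this was Cd68. Ptprc, the leukocyte marker, was near 0 in both groups.

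Epithelial cytokines split by gene. Of 26 tested, 10 rose and 7 fell. Tslp, an alarmin of barrier epithelia, had 803, 788 and 760.2 CPM in UK5099 organoids against 84.8, 86.6 and 96.4 CPM in Vehicle (3.13 ± 0.06 on the log2 scale, adjusted p = 1.5e-09). Il33, a nuclear alarmin, had 753, 639.8 and 698 CPM against 220.1, 172 and 186 CPM. Both had narrow spreads in both groups, UK5099 library 1 included. Il1f9, an epidermal IL-1 family cytokine, had 7.34, 28.4 and 31.9 CPM against 0.272, 0.292 and 0.544 CPM, and its log2 fold change of 4.5 was 5.15 without UK5099 library 1. Csf1, the growth factor of macrophages, fell by 1.52. Secreted apical and defence genes were lower in 10 of 12 cases and higher in 2 (median -1.64), with Lcn2, which sequesters bacterial siderophores, at 44.3, 51.0 and 47.8 CPM against 124, 156 and 152 CPM.

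Matrix, adhesion and contractile genes mostly fell. Of 22 mesenchymal and matrix genes 17 fell and 2 rose (median -0.89), of 29 genes of hemidesmosomes and basement membrane 21 fell and 3 rose (median -0.59), and of 20 actin and contractility genes 13 fell and 1 rose (median -0.32). Col4a1, a basement membrane collagen, had 132, 145 and 133 CPM in UK5099 organoids against 314, 297 and 289 CPM in Vehicle. The basal marker Itga6, an integrin gene, was instead higher, at 1544, 1514 and 1345 CPM against 1015, 1013 and 1015 CPM. Postn, the matrix protein periostin, had 0.321, 0.0381 and 0.424 CPM against 8.11, 14.5 and 11.3 CPM (-3.96 ± 0.25). Summed fibroblast and smooth muscle markers overlapped between the groups, at 16 to 18 CPM with UK5099 and 10.3 to 19.1 CPM in Vehicle, with Dcn the largest part of the sum in UK5099, and Lum was at most 0.0401 CPM in any of the 6 libraries. Of the 12 markers 4 were tested, of which Col1a1, Pdgfra and Acta2 fell by 0.94, 0.95 and 1.09 and Dcn rose. Dcn, which codes for the proteoglycan decorin, had 10.3, 11.2 and 14.3 CPM with UK5099 against 1.27, 7.92 and 1.25 CPM in Vehicle (2.05, or 2.8 without Vehicle library 2). The part of these cells in the matrix changes was not tested.

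Signalling targets changed along several pathways. Targets of YAP and TEAD, which respond to cell tension and contact, fell in 10 of 21 cases and rose in 1 (median -0.22). Ccn2 had 199, 145 and 189 CPM in UK5099 organoids against 1209, 1124 and 997 CPM in Vehicle (-2.65 ± 0.12), and Ankrd1 fell by 2.99. Notch genes rose in 7 of 12 cases and fell in 1 (median 0.43). Notch1 had 504, 409 and 477 CPM against 287, 276 and 261 CPM, and the Notch feedback gene Nrarp rose by 1.24 while the target Hey1 fell by 0.98. Ligands and receptors of the EGF receptor family rose in 7 of 14 cases and fell in 1, with Ereg, which codes for epiregulin, at 88.6, 139.9 and 115 CPM against 54.9, 57.9 and 58.2 CPM. Retinoic acid genes were called in 13 of 15 cases, 7 higher and 6 lower. The receptor gene Rarb fell by 1.41 whereas Rxra and Rarg rose by 0.74 and 0.54.

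Wnt and Hedgehog genes went both ways, with 7 higher and 9 lower of 23. The TGF-beta and BMP group had 2 higher and 6 lower of 23, with the latent TGF-beta binding protein gene Ltbp2 at 10.5, 8.95 and 10.2 CPM against 59.2, 71.9 and 64.0 CPM. Immediate early genes and ERK feedback genes had 6 higher and 8 lower of 28. The related factors Egr3 and Egr2 moved in opposite directions, by 1.88 and -1.65. Of 14 steroid receptor targets 2 rose and 3 fell, and of 16 clock genes 1 rose and 5 fell. The shares called were 35.7% for steroid receptor targets, 37.5% for clock genes and 34.8% for the TGF-beta and BMP group. All lay below the 38.1% of all genes.

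Of 97 epithelial transcription factors, 36 rose and 15 fell. Within this list, large rises were in Sox7, Dlx5, Elf5, Zfp750 and Bcl11b. Sox7 had 35.9, 55.4 and 57.3 CPM with UK5099 against 7.02, 6.75 and 6.44 CPM in Vehicle (2.76 ± 0.17), and Zfp750, a regulator of epidermal differentiation, had 209.3, 301 and 358 CPM against 98.9, 89.7 and 88.2 CPM. The deepest falls within the list were in Runx3, Klf2, Rarb, Sox4, Sox9 and Cebpd. Runx3 had 0.321, 0.761 and 0.364 CPM with UK5099 against 6.43, 8.21 and 7.57 CPM in Vehicle (-3.03 ± 0.18), and Sox4 had 669.7, 620.5 and 839 CPM against 1120.3, 1281 and 1330.2 CPM. The call of Cebpd (-0.55, adjusted p = 0.042) was lost in 8 of the alternatives, among them leaving out UK5099 library 1 or 2 or Vehicle library 2 or 3.

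Some genes stayed close to Vehicle in this fit. In 772 genes (6.23%) the 95% interval of the log2 fold change lay within 0.2 of 0, and in 83.8% it lay within 2-fold. The most abundant genes of the first kind were Cd44, Ctnnb1, Eif4g2, Iqgap1, Tubb5 and Capns1. Cd44, a hyaluronan receptor, had 2060, 2037 and 1747 CPM with UK5099 against 2057, 1886 and 1891 CPM in Vehicle, and Ctnnb1, which codes for beta-catenin, had 1524, 1346 and 1369 CPM against 1514, 1449 and 1450.1 CPM. Over the alternatives, the interval of these 6 genes passed 0.2 in 23 of 108 values, in Cd44, Ctnnb1, Eif4g2 and Iqgap1. Zinc finger genes named Zfp were called in 17.4% of 316 cases and Hox genes in 28.0% of 25, beside 38.1% of all genes.

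**Figure D3:**
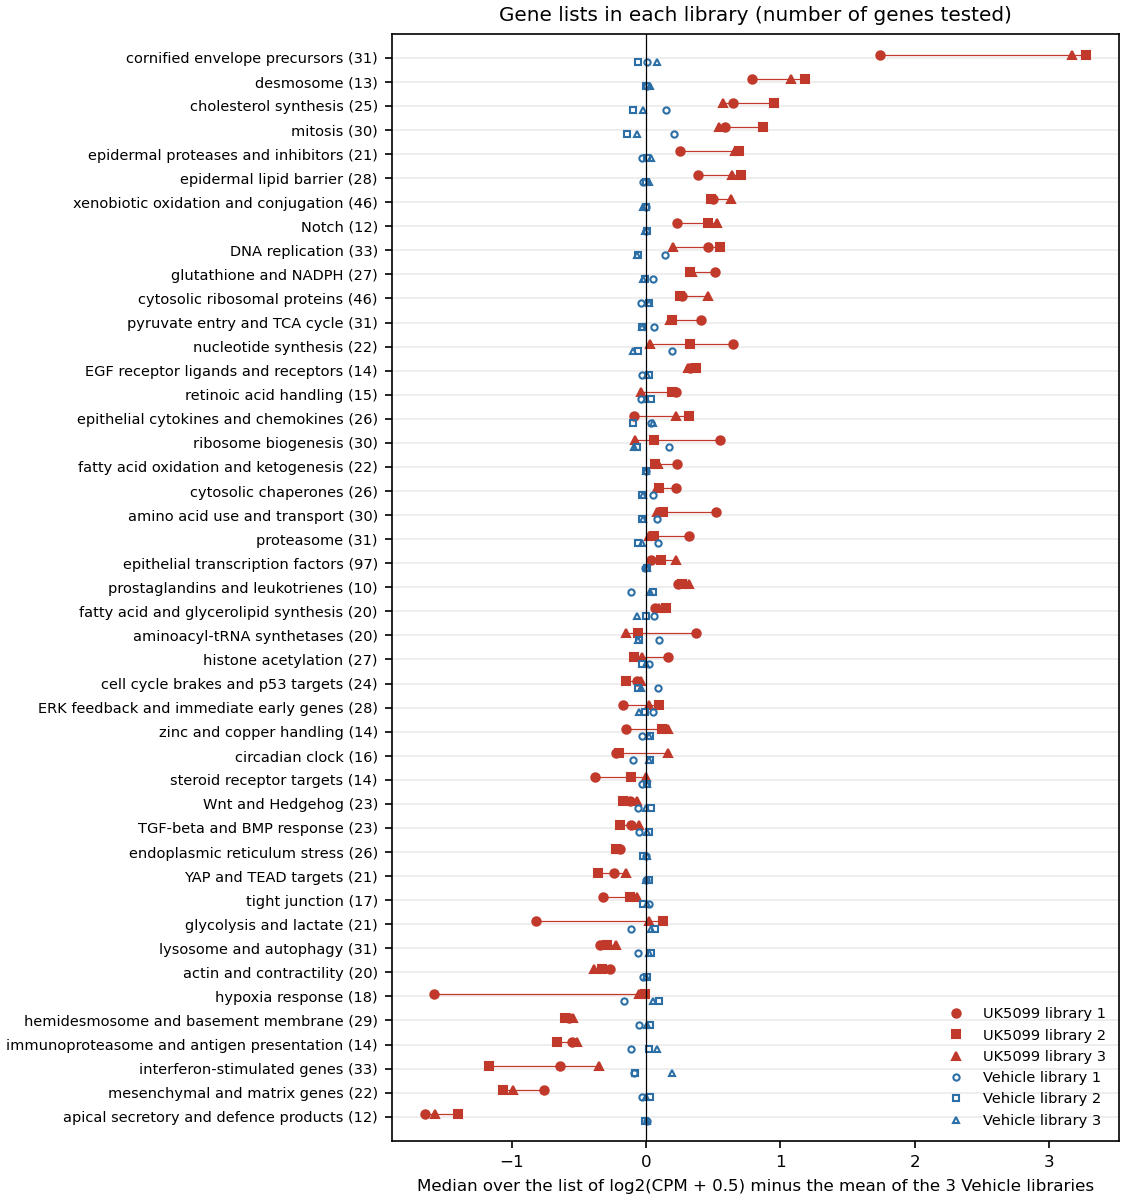
Median over each gene group (number of tested genes in parentheses) of log2(CPM + 0.5) minus the mean of the 3 Vehicle libraries, with UK5099 libraries 1 to 3 as filled red circles, squares and triangles above the open blue Vehicle libraries 1 to 3. In the hypoxia response the UK5099 libraries stand at -1.58, -0.01 and -0.05, and in glycolysis at -0.82, 0.13 and 0.02, so that library 1 is apart from the other 2.

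UK5099 library 1 departed from libraries 2 and 3 more than any other library did from its group. Its median absolute distance from the mean of the other 2 was 0.242 on the log2 scale, against 0.136 for library 2, 0.178 for library 3, 0.072 to 0.112 in Vehicle and 0.059 to 0.063 in Mpc1-KO. It lay over 1 log2 unit outside both other UK5099 libraries in 290 genes (2.34%), 72 above and 218 below. The same count was 27 and 22 for UK5099 libraries 2 and 3 and 9 to 24 in Vehicle. The signed median distance of UK5099 library 1 was 0.135, so that it stood high as a whole. With median-of-ratios rescaling it was -0.011, and 46 genes lay above and 291 below. The median SD of a gene was 0.181 over the 3 UK5099 libraries and 0.088 over the 3 Vehicle libraries. Library 1 was not the shallowest, with 24.9 M reads against 26.3 and 16.5 M reads in libraries 2 and 3. Mitochondrially encoded genes took 1.033% of its reads against 0.731% and 0.782%, and 0.658% to 0.849% in Vehicle; their part in the departure was not tested.

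**Figure D4:**
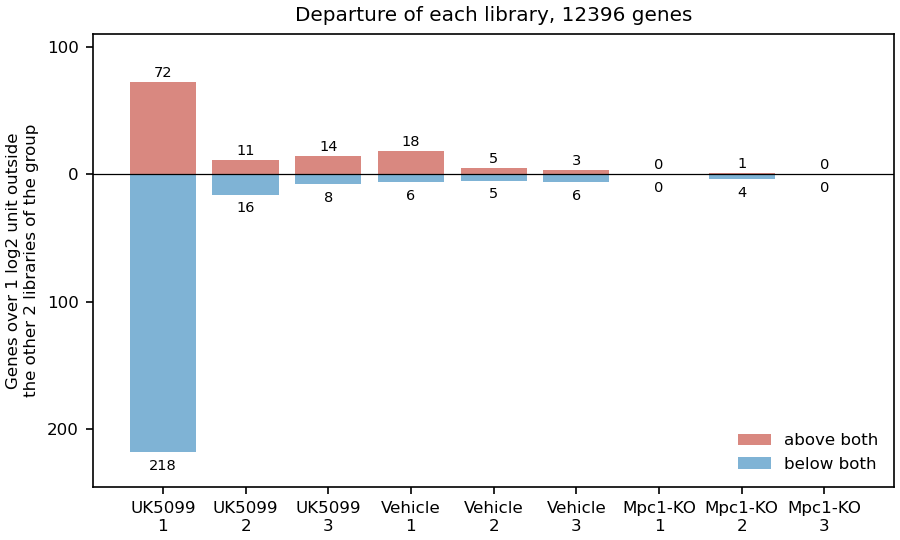
Number of genes, of 12396, in which each library lay over 1 log2 unit above (upward bars) or below (downward bars) both other libraries of its group. UK5099 library 1 has 72 above and 218 below, and the next highest total is 27 in UK5099 library 2.

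Of the genes low in UK5099 library 1, some rose and some fell against Vehicle. Of the 218 genes, 74 were called higher with UK5099, 45 were called lower and 99 were not called. Among them were cornified genes that rose less in this library. Flg, the envelope precursor filaggrin, had 5.61 CPM in library 1 against 36.4 and 35.8 CPM in libraries 2 and 3 and 0.272 to 0.328 CPM in Vehicle. Sprr2d had 24.0 against 119 and 108 CPM, and Cnfn had 4.77 against 48.2 and 28.1 CPM. Of the 31 cornified envelope genes, 22 lay over 0.5 log2 units below both other libraries in library 1 and none lay as far above, while over all genes the shares were 5.48% and 7.45%. Library 1 still exceeded all Vehicle libraries in Flg, Sprr2d, Sprr2f, Cnfn and Rptn. Cnfn and Rptn are also among the largest rises, whose rule required this.

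Also low were genes of the hypoxia response and of glycolysis, whose medians in UK5099 libraries 2 and 3 stood between -0.05 and 0.13 relative to Vehicle. Of 18 hypoxia genes, 16 lay over 0.5 log2 units below both other UK5099 libraries in library 1, and of 21 glycolysis and lactate genes 13 did. Over all genes the share was 5.48%. Bnip3, a mitophagy receptor induced by low oxygen, had 22.5 CPM in library 1 against 110 and 92.6 CPM in libraries 2 and 3 and 97.6, 122 and 122 CPM in Vehicle. Ndufa4l2, a mitochondrial protein gene induced by low oxygen, had 16 against 132 and 111 CPM, with 29.9, 52.9 and 48.3 CPM in Vehicle. Ankrd37 had 15.9 against 68.3 and 71.9 CPM, with 52.6 to 61.7 CPM in Vehicle. In these 3 genes UK5099 library 1 lay below all 3 Vehicle libraries. UK5099 libraries 2 and 3 lay above all 3 in Ndufa4l2 and Ankrd37, and in Bnip3 library 2 lay within the Vehicle range and library 3 below it.

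Further genes are given as a description, since they were named after their values were seen. Ndrg1, a hypoxia-induced gene, had 413 CPM in library 1 against 1266 and 1279 CPM in libraries 2 and 3 and 1116 to 1316 CPM in Vehicle. Slc16a3, a lactate exporter, had 83.8 against 375 and 265 CPM, with 299 to 377 CPM in Vehicle. Hif1a, whose product drives the response when stabilized, was highest in library 1, at 416 against 315 and 311 CPM, and was higher with UK5099 in all 3 libraries than in Vehicle (187 to 213 CPM). Nxph4 and Unc13a, from the list of the lowest genes, had 1.92 and 15.7 CPM in library 1 against at least 16.6 and 66.0 CPM in libraries 2 and 3. Vehicle library 1 carries the same number. None of the listed hypoxia or glycolysis genes lay over 0.5 log2 units below Vehicle libraries 2 and 3 in it, beside 0.67% of all genes. Its list medians were still the lowest of the Vehicle libraries. In Vehicle libraries 1 to 3 they were -0.16, 0.1 and 0.05 for hypoxia and -0.11, 0.07 and 0.04 for glycolysis. Ndufa4l2, outside both lists, did lie over 0.5 log2 units below the other Vehicle libraries in Vehicle library 1.

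The genes high in UK5099 library 1 included enzymes of amino acid and one-carbon metabolism. Asns, the asparagine synthetase, had 145 CPM in library 1 against 47.8 and 43.8 CPM in libraries 2 and 3 and 55.2, 37.5 and 37.2 CPM in Vehicle. The mitochondrial folate enzyme genes Aldh1l2 and Mthfd2 had 42.9 and 50.6 CPM in library 1 against at most 14.6 and 20.4 CPM in the other 2. Atf5, a transcription factor of the amino acid stress response, had 68.6 against 27.5 and 24.4 CPM. None of these 4 genes passed in the comparison of UK5099 with Vehicle, though Asns (0.66) passed with the replicate number as a block in the 6 libraries, as did Mir100hg (0.81). Of 30 genes of amino acid use and transport, 11 lay over 0.5 log2 units above both other libraries in library 1. So did 11 of 30 genes of ribosome biogenesis and 6 of 20 aminoacyl-tRNA synthetase genes, beside 7.45% of all genes. These counts are without rescaling.

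Several of these genes were also highest in Vehicle library 1. The non-coding host gene Mir100hg had 213 CPM in UK5099 library 1 against 79.5 and 65.5 CPM in libraries 2 and 3, and it had 107 CPM in Vehicle library 1 against 44.2 and 43.4 CPM in Vehicle libraries 2 and 3. Cyp2f2, AI480526 and Asns were likewise highest in library 1 of both groups. Spp1, the secreted protein osteopontin, had 40.3, 6.02 and 11.8 CPM in UK5099 organoids and 96.3, 62.3 and 57.2 CPM in Vehicle, and its log2 fold change of -2.25 was -2.98 without UK5099 library 1 and -1.66 without UK5099 library 2. Col27a1 and Reep6 completed the list. Whether libraries with the number 1 share a culture, animal or preparation is not stated in the labels.

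**Figure D5:**
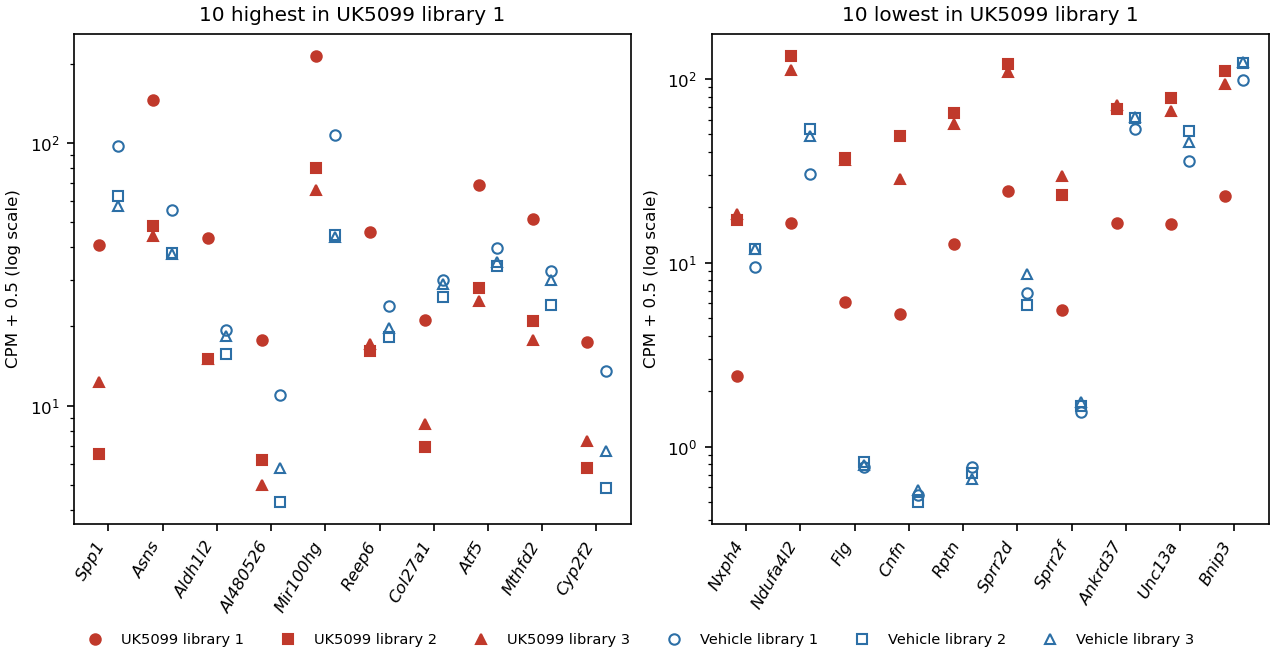
CPM + 0.5 on a log axis for the 10 genes with the largest gap of UK5099 library 1 above (left) and below (right) libraries 2 and 3, at a mean of at least 5 CPM. Filled red symbols are UK5099 libraries and open blue symbols Vehicle libraries. Asns, at 145 CPM in library 1, and Bnip3, at 22.5 CPM, show library 1 apart on both sides.

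Leaving out UK5099 library 1 raised the number of calls to 5683, with 2629 higher and 3054 lower. Of these, 4465 were among the 4721 calls of all libraries, 1218 were added and 256 were lost. The cornified envelope group then had 31 of 31 genes higher and a median of 3.22, and the hypoxia group had 3 higher and 5 lower of 18 with a median of -0.02, against -0.48 with all libraries. The glycolysis group changed to 5 higher and 2 lower of 21, with a median of 0.04. Ribosome biogenesis had 4 higher and 4 lower of 30 without library 1, against 6 and 0 with it, and the synthetases had 2 higher and 8 lower of 20.

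Single genes moved by over 1.5-fold without this library as well. Flg rose by 5.52 instead of 4.66 on the log2 scale, Rptn by 6.40, Cnfn by 6.11, Nccrp1 by 6.48, Sprr2d by 4.02 and Sprr2f by 3.99. Alox12b changed by 3.42 instead of 2.59 and Endou by 4.14 instead of 3.24. Cnfn and Endou changed by 4.5 and 2.55 without UK5099 library 2. Bnip3, at -0.88 with all libraries, was at -0.17 (adjusted p = 0.18). Adm, which codes for the vessel-relaxing peptide adrenomedullin, had 4.65, 19.6 and 29.1 CPM with UK5099 against 61.3, 79.4 and 65.1 CPM in Vehicle, and its change of -2.24 became -1.49 (adjusted p = 7.2e-06). Ndufa4l2, Ankrd37, Nxph4 and Unc13a did not pass with all libraries and were higher with UK5099 without library 1, by 1.5, 0.27, 0.69 and 0.72. The groups of cholesterol synthesis and mitosis kept 25 of 25 and 30 of 30 genes higher.

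The drug differed from deletion of Mpc1 in many genes. In the direct contrast of UK5099 with Mpc1-KO, 5498 genes passed (44.4% of 12396). Cornified envelope genes were higher with UK5099 by a median of 2.59, and all 31 passed. Krt10 averaged 360.3 ± 197 CPM with UK5099 and 2.89 CPM in Mpc1-KO, and Cyp1b1 averaged 208 ± 23.5 and 9.80 CPM (SD, n = 3 libraries). Cholesterol synthesis genes passed in 23 of 25 cases, with a median difference of 0.71. Mitosis genes, in contrast, passed in 8 of 30 cases with a median difference of -0.22, and cytosolic ribosomal protein genes in 4 of 46 with 0.05. A gene that did not pass is not shown to be equal in both. Mki67 averaged 213 CPM with UK5099 and 242 CPM in Mpc1-KO, a difference of -0.19 on the log2 scale (adjusted p = 0.27).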

How the data were processed

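Poly(A)-selected, stranded 50-base single-end RNA-seq had been made from basal-derived prostate organoids. The submitters' processing notes name STAR 2.7.9a, the build GRCm39 and Partek. Per the methods, reads were counted per gene with an Ensembl annotation of that build; the strand setting and the treatment of reads with several matches were not stated. The authors deposited 1 table of 52249 entries in CPM (counts scaled to the library's total) with 0.0001 added, which was subtracted. Of these, 24 gene symbols had been turned into dates by a spreadsheet and were left out of named lists. Values divided by the CPM of 1 read were whole within 0.02 in 99.9% to 99.93% of cases, giving depths of 16.49 to 27.4 M reads in the 6 libraries compared, and 3 reads were taken as the floor. Depth and floors cover counting error only.

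The 12396 genes whose 9-library mean reached 1 CPM were kept. log2(CPM + 0.5) was fitted in limma 3.58.1 (R 4.3.3) with all 9 libraries in 1 model (6 residual degrees of freedom), an abundance trend and two-sided moderated tests, with Benjamini-Hochberg adjustment over all genes and a threshold of 0.05. Python 3.11.15, pandas 2.3.3, numpy 2.4.6 and matplotlib 3.10.9 did the rest. The code was tested on simulated data. Samples were grouped by their labels. Alternatives were other pseudocounts, filters, scalings, thresholds, library weights, voom on rounded reads, a replicate block and leaving out each library.

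The deviations of same-numbered UK5099 and Vehicle libraries from their group means correlated across genes at 0.44, 0.14 and 0.31. By the rule that each exceeds 0.1, the numbers counted as a possible pairing. The main fit had no replicate block, so its p-values, intervals and calls ignore such a pairing. The block was run only as an alternative. Pairs with different numbers reached 0.13 (UK5099 library 2 with Vehicle library 3) and 0.26 (UK5099 library 3 with Vehicle library 2), and same-numbered UK5099 and Mpc1-KO libraries stood at -0.12, -0.08 and 0.12. The labels do not say what the numbers share.

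The groups and gene lists were chosen with earlier results of these data known. Genes were named by fixed rules: the 12 largest passing and non-overlapping changes in each direction at a mean of at least 5 CPM, the 12 largest gains and losses of CPM, up to 4 passing members of smallest p in each list, the 10 highest and 10 lowest in UK5099 library 1, genes without reads in 1 group, the 6 most abundant steady genes, the 6 genes of largest fold in each direction within the epithelial transcription factor list, Mpc1 and Mpc2, and members given as a contrast. Gclc, Hmgcs1, Hif1a, Ndrg1, Slc16a3 and Gapdh were named after their values were seen. Some genes that the rules would name are not reported here. Promoters came from RefSeq (GRCm38.p6, 9593 tested genes matched), and 99.0% of tested symbols matched a GENCODE biotype.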

Additional observations from a re-analysis of the deposited data

How the results depend on the processing

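At an adjusted p of 0.01, limma called 3023 genes for UK5099 against Vehicle (1518 higher and 1505 lower) and 3395 for UK5099 against Mpc1-KO. Genes called and past 2-fold numbered 615 at a mean of at least 5 CPM. The genes in which UK5099 library 1 lay over 1 log2 unit outside the other 2 numbered 174 with a pseudocount of 2 CPM and 184 at a mean of at least 5 CPM. With median-of-ratios rescaling they numbered 337, with 46 above and 291 below. Leaving out 1 library gave 3439 (without Vehicle library 2) to 5683 calls (without UK5099 library 1). With the 6 libraries alone 3474 genes passed, and with library weights 6576. With the replicate number as a block, 4922 genes passed with 9 libraries and 4447 with 6, where Asns and Mir100hg gained a call and the interval of Ctnnb1 passed 0.2; the block changed no other call of a named gene. Of 4480 values of 250 named genes, 4400 kept their direction and side of the threshold, 37 lost the call, 11 gained it and 32 reversed. Of 881 list medians 45 moved by more than the spread between UK5099 libraries.

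All reversals were in genes that did not pass with all libraries. With library weights the log2 fold changes were 0.015 (Mpc1), -0.135 (Aldh1l2), 0.081 (Ankrd37), -0.291 (Atf5), -0.006 (Cyp2f2), 0.426 (Nxph4), -0.183 (Reep6) and 0.595 (Unc13a). Atf5 stood at -0.027 with median-of-ratios and -0.018 with upper-quartile rescaling, and Unc13a at 0.013 with a pseudocount of 2 CPM. Leaving out 1 library in turn, the values ranged over -0.224 to 0.714 (AI480526), -0.237 to 0.526 (Aldh1l2), -0.801 to 0.269 (Ankrd37), -0.458 to 0.28 (Atf5), -0.221 to 0.664 (Cyp2f2), -0.1 to 0.156 (Gapdh), -0.11 to 0.003 (Mpc1), -0.568 to 0.191 (Mthfd2), -0.762 to 0.052 (Ndrg1), -0.002 to 1.505 (Ndufa4l2), -0.776 to 0.688 (Nxph4), -0.297 to 0.454 (Reep6) and -0.422 to 0.72 (Unc13a). The causes were not tested. With 3 libraries a group, 1 library can decide a call, and genes near 1 CPM rest on few reads.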
